A study of Mus musculus with 16 samples.

Results

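The 101 genes described here encode homeobox and other developmental transcription factors. They were chosen by symbol alone from the 32285 genes of the RNA matrices. A gene was taken when its symbol began with Hoxa, Hoxb, Hoxc, Hoxd, Pax, Lhx, Nkx, Tbx, Gata, Irx or the stem of *Six4* followed by a digit, and antisense genes, opposite-strand transcripts and pseudogenes were left out. This gave 39 *Hox* genes (11 *Hoxa*, 10 *Hoxb*, 9 *Hoxc* and 9 *Hoxd*), 14 *Nkx*, 13 *Tbx*, 9 *Pax*, 8 *Lhx*, 6 *Gata* and 6 *Irx* genes and 6 genes of the *Six4* family. The rule used no measured value, although it was set with earlier results of these data known.

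These factors bind DNA and set the identity of body segments, organs and cell types in the embryo, where each family acts in particular regions and lineages. Outside those lineages most of them are held silent by polycomb group proteins. Polycomb repressive complex 2 (PRC2) methylates lysine 27 of histone H3 over their CpG-rich promoters, and polycomb repressive complex 1 (PRC1) binds that mark and ubiquitinates histone H2A. In the adult brain a few members stay in use, such as *Lhx2* and *Pax6* in radial glia and neural stem cells, *Lhx6* in interneurons of the medial ganglionic eminence, and *Nkx2-2* and *Nkx6-2* in the oligodendrocyte lineage.

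Single nuclei were prepared from microdissected, fresh frozen dentate gyrus (DG) of 4 wild-type (WT) mice and 4 V321L mice, with 2 females (F1, F2) and 2 males (M1, M2) of each genotype and 1 10x Multiome library per mouse. V321L mice are homozygous for a valine-to-leucine change in the transmembrane domain of neuregulin 1 (*Nrg1*) that impairs the release and nuclear signaling of its intracellular domain, and WT mice carry valine on both alleles. The allele is in the germline, so every cell of the tissue carries it, and the ages of these mice are not given in the sources used here. The comparison asks whether members that are silent in WT nuclei were derepressed in V321L nuclei, in RNA and in chromatin accessibility (ATAC) within 1 kb of the transcription start site (TSS).

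The libraries of the genotypes differed in depth, and this touches every comparison that follows. WT libraries held 4326426 to 14624265 RNA unique molecular identifiers (UMIs) and V321L libraries 15505354 to 23582057. Of 16406 nuclei kept, 6703 WT and 4147 V321L nuclei were granule cells (GCs), the principal neurons of the DG. The median number of UMIs per GC was 1039 to 1925 in WT and 3139 to 4650 in V321L mice, and the median mitochondrial share of the nuclei was 0.0694% to 0.128% in WT and 0.390% to 1.17% in V321L mice. The profile of free RNA was taken from barcodes with at most 100 UMIs. Its share was estimated at 11.8% to 19.3% of the UMIs of WT GCs and 9.20% to 17.6% in V321L GCs. The estimate counts every UMI of the glial and vascular markers in GCs as free RNA, so it can be too high. Genotype and these measures of depth and RNA content cannot be told apart in this design. Of the barcode names of the nuclei, 161 occurred in more than 1 library. Nuclei were clustered without the 101 genes and clusters were named from marker lists. Each of the 6 GC clusters had 5 to 8 of the 8 GC markers (*Prox1*, *C1ql2*, *Dsp*, *Plk5*, *Stxbp6*, *Glis3*, *Dock10* and *Tdo2*) at a higher level than the other nuclei.

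The promoters of the members were examined first, because CpG-rich promoters are the ones that PRC2 covers. Promoter sequences from RefSeq (mouse build GRCm38.p6, 250 bases before to 50 bases after the start) were matched for 68 members and for 27025 genes in all. The members held a median of 17.5 CG dinucleotides per 300 bases, against 8 over all genes, and 63.2% of them (43 of 68) had at least 15, against 37.1% of all genes. The 4 promoters printed here belong to *Lhx2* and *Lhx9*, the members with the most RNA in GCs, to *Pax6*, which differed in astrocytes and radial glia, and to *Hoxa13*, which held the most CG dinucleotides among the *Hox* members with no UMI in GCs and no peak. They are written 5′ to 3′ on the strand of the gene with each CG in capitals.
Lhx2: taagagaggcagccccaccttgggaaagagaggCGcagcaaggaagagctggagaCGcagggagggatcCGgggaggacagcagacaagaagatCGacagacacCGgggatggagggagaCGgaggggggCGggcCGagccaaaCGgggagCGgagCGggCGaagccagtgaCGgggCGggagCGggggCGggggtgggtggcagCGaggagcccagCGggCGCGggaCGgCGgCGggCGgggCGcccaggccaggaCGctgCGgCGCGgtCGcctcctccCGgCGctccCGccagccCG
Lhx9: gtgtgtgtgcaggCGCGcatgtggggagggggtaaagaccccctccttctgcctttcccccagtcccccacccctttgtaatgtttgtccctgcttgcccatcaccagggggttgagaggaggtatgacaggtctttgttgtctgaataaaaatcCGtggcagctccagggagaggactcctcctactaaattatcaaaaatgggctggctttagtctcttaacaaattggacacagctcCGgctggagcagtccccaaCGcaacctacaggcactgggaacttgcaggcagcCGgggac
Pax6: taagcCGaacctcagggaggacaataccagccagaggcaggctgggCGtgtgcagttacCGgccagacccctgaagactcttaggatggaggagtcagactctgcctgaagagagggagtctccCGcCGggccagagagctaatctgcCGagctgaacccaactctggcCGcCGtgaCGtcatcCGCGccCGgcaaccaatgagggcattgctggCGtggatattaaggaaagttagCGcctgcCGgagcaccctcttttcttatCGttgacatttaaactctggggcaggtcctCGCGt
Hoxa13: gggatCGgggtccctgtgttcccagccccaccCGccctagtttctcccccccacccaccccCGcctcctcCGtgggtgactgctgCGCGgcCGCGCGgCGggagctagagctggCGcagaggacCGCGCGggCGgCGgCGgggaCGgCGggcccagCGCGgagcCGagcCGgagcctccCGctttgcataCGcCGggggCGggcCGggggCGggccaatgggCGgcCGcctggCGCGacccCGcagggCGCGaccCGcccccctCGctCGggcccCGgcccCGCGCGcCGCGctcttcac
The *Lhx2* promoter lies at chr2:38339031-38339330 on the plus strand and holds 34 CG dinucleotides. A second *Lhx2* promoter at chr2:38351058-38351357, not printed, holds 29. The *Lhx9* promoter at chr1:138842395-138842694 on the minus strand holds 6. The starts of *Lhx9* run from chr1:138842429 to chr1:138848577, and the promoter at the latter, upstream start is not described here. The *Pax6* promoter at chr2:105668646-105668945 on the plus strand holds 18, and a second at chr2:105682213-105682512, not printed, holds 16. The *Hoxa13* promoter at chr6:52260831-52261130 on the minus strand holds 45, and *Hoxa13* had neither a UMI in GCs nor an ATAC peak within 1 kb of its TSS in any library. Each sequence runs into the first transcribed bases of the gene, and CG content alone does not show which proteins are bound there.

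RNA of most members was at or near the detection limit in GCs of both genotypes. No UMI was found for 44 of the 101 members in any GC, or 43.6%, against 24.5% of all genes. Another 45 members had 1 to 5 UMIs in all GCs together, 10 had 6 to 55, and 2, *Lhx2* and *Lhx9*, had more than 100. A count of 0 over a genotype allows up to 0.229 counts per 1000000 UMIs (CPM) in WT GCs and 0.183 CPM in V321L GCs, for counting error only. The filter on low counts left 2 of 101 members (1.98%) for the test across genes, against 38.0% of all genes.

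The number of members detected was not higher in V321L GCs, although these held more UMIs per nucleus. In WT GCs 51 members had at least 1 UMI, and in V321L GCs 27. Of these, 30 were found only in WT GCs, each with at most 7 UMIs, and 6 (*Gata3*, *Lhx6*, *Nkx1-1*, *Six5*, *Tbx2* and *Tbx22*, named after their values were seen) only in V321L GCs, each with at most 5. The members other than *Lhx2* and *Lhx9* together gave 170 UMIs in WT and 150 in V321L GCs. The library of WT M1 alone held 13 of the 30, and without it 35 members had a UMI in WT GCs, 17 were found only there, and the members other than *Lhx2* and *Lhx9* gave 112 UMIs in WT. No p is given for such counts, because they are sums over a chosen list. The same split over all genes is not given here, so these counts do not show a trait particular to the members.

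The *Hox* genes, which pattern the body axis behind the forebrain, were almost without RNA. Of 39 *Hox* members 29 had no UMI in GCs, and the rest gave 12 UMIs in WT and 2 in V321L GCs. WT M1 held 8 of the 12, and the other 3 WT mice held 4. The *Hox* genes detected, also named after their values were seen, were *Hoxa3*, *Hoxa7*, *Hoxa10*, *Hoxb3*, *Hoxb8*, *Hoxb13*, *Hoxc4*, *Hoxc5*, *Hoxd1* and *Hoxd4*, and of these only *Hoxa7* and *Hoxc5* were found in V321L GCs, with 1 UMI each. Over all nuclei kept, of every cell class, 22 *Hox* members had no UMI and the others gave 23 UMIs in WT and 9 in V321L nuclei. A rise of *Hox* RNA in V321L GCs was not detectable at this depth.

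The other families were sparse as well, with the exception of *Lhx*. The 6 *Irx* genes, which pattern the neural plate and the heart, gave 4 UMIs in WT and 0 in V321L GCs. The 6 *Gata* genes, zinc finger factors of blood and endoderm, gave 16 and 6 UMIs, and the 14 *Nkx* genes, factors of the ventral neural tube, heart and gut, gave 15 and 20. The 9 *Pax* genes, paired box factors of eye, neural tube and kidney, gave 40 and 33 UMIs. The 6 genes of the *Six4* family, which act in eye and muscle, gave 26 and 34, and the 13 *Tbx* genes, the T-box factors of mesoderm and limb, gave 43 and 49. No family but *Lhx* thus gave more than 49 UMIs in the GCs of a genotype, of 13087149 UMIs in WT and 16436763 in V321L GCs. The 8 *Lhx* genes gave 384 UMIs in WT and 707 in V321L GCs, nearly all from *Lhx2* and *Lhx9*, which held 77.0% of all member UMIs.

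*Lhx2*, a LIM homeobox factor needed for the hippocampal primordium and expressed in neural progenitors and radial glia, had more RNA in V321L than in WT GCs. Its level was 8.96, 10.2, 19.2 and 9.46 CPM in WT F1, F2, M1 and M2, and 27.5, 22.1, 21.5 and 32.1 CPM in V321L F1, F2, M1 and M2. The mean was 11.96 CPM ± 4.86 (SD, n = 4) in WT and 25.8 CPM ± 5.01 (SD, n = 4) in V321L GCs. The genotypes did not overlap, and WT M1, the library with the fewest UMIs, came nearest to the V321L mice.

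In the edgeR quasi-likelihood test over 12279 genes, *Lhx2* was higher in V321L GCs by 0.72 on the log2 scale (SE 0.212, adjusted p = 0.00795). The background of this comparison was high. Of all genes tested 70.2% passed an adjusted p of 0.05, 38.5% as higher and 31.8% as lower in V321L GCs, and with library sizes in place of TMM normalization 6724 genes were called higher and 2098 lower. Both members tested were called, 1 in each direction, against a background in which most genes were. The median change over all genes was 0.11 with TMM normalization and 0.58 with library sizes, and *Lhx2* lay 0.61 and 0.60 above these medians. Without WT M1 the change was 0.84 (SE 0.194, adjusted p = 0.00192). With each nucleus thinned to 1000 UMIs the change was 0.59 (adjusted p = 0.105), which did not pass.

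*Lhx9*, a close relative of *Lhx2* that acts in the developing diencephalon, pallium and gonad, had overlapping levels. It stood at 17.6, 14.5, 19.2 and 20.4 CPM in WT F1, F2, M1 and M2, and at 16.7, 17.4, 19.1 and 16.9 CPM in V321L F1, F2, M1 and M2. The ranges of the genotypes overlapped, with means of 17.9 CPM ± 2.55 (SD, n = 4) and 17.5 CPM ± 1.10 (SD, n = 4). With TMM normalization edgeR called it lower in V321L GCs, with a change of -0.48 on the log2 scale (SE 0.146, adjusted p = 0.0099). With library sizes the change was -0.02 (adjusted p = 0.929), thinned to 1000 UMIs -0.14 (adjusted p = 0.597), and with the expected free RNA subtracted -0.09 (adjusted p = 0.705) in the same edgeR test. Relative to the median of all genes *Lhx9* lay at -0.59 under both normalizations, and its call thus depended on the scaling.

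**Figure D1:**
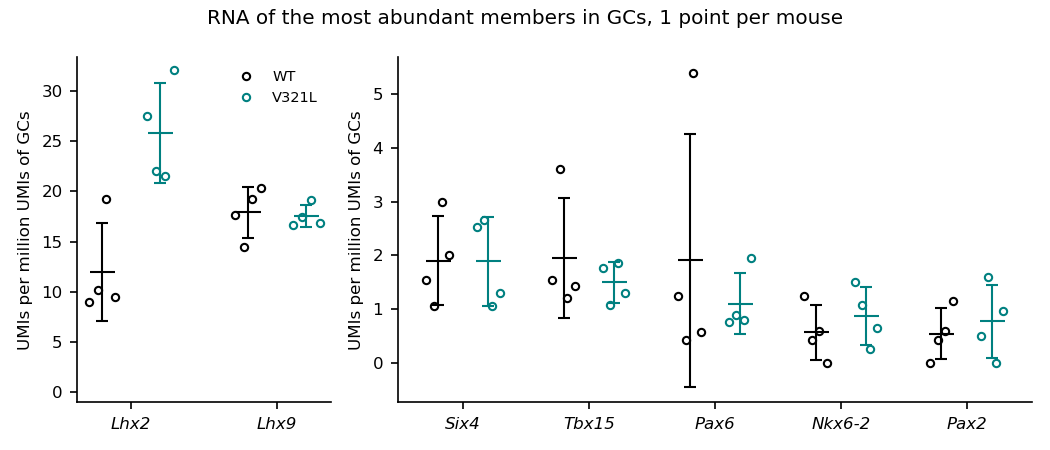
RNA level in GCs, in CPM, of the 7 members named for GCs, with 1 point per mouse and the mean ± SD over 4 mice per genotype. *Lhx2* lies between 8.96 and 19.2 CPM in WT and between 21.5 and 32.1 CPM in V321L mice, whereas *Lhx9* overlaps and the other 5 members lie at or below 5.40 CPM.

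Free RNA held both genes, and its part in their levels was computed from its profile and its estimated share of the GC UMIs. In that free RNA *Lhx2* stood at 57.0 CPM in WT and 63.4 CPM in V321L libraries, above its level in GCs of either genotype. Free RNA was thus estimated to give 109 of the 142 *Lhx2* UMIs of WT GCs and 138 of the 413 of V321L GCs. With these subtracted, *Lhx2* was higher in V321L GCs by 2.18 on the log2 scale (SE 0.502, edgeR adjusted p = 0.0023). The size of this change is uncertain, since it rests on the few WT UMIs left after subtraction. The estimate can also be too high, and for *Pax6* it exceeded the UMIs found in WT GCs. For *Lhx9* the estimate was 75.5 of 228 UMIs in WT and 24.7 of 288 in V321L GCs.

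The share of GCs with at least 1 UMI depended on the depth per nucleus. *Lhx2* was found in 131 of 6703 WT GCs, or 1.97% ± 0.150 per mouse (SD, n = 4), and in 383 of 4147 V321L GCs, or 9.29% ± 0.663 (SD, n = 4). The genotypes did not overlap (two-sided exact permutation test, p = 0.0286, the smallest that 4 against 4 mice can give), and adjusted over the 7 genes compared the exact permutation p was 0.10. After thinning to 1000 UMIs, which left 4775 WT and 4026 V321L GCs, the shares were 1.19% ± 0.613 and 2.52% ± 0.597 (SD, n = 4 each) and overlapped (exact permutation p = 0.0571).

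As a background for these shares, nuclei of oligodendrocytes, oligodendrocyte precursors (OPCs) and microglia were counted together. *Lhx2* was found in 1.17% of 512 such WT nuclei and in 1.58% of 1014 V321L nuclei, at a median of 1037 and 1160 UMIs per nucleus. The GCs had a median of 1467 UMIs in WT and 3825 in V321L. Thinned to 1000 UMIs, the glial share was 0.376% (1 of 266) in WT and 1.25% (8 of 639) in V321L nuclei. The shares of GCs lay above those of these glia in both genotypes at both depths.

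For *Lhx9* the share of GCs was 3.11% ± 0.866 in WT and 6.46% ± 1.38 in V321L mice at full depth (SD, n = 4 each, exact permutation p = 0.0286). Thinned, it was 1.65% ± 0.257 and 2.05% ± 0.297 (SD, n = 4 each), and the exact permutation p was 0.114. From 3.36 percentage points its difference thus shrank to 0.40, and that of *Lhx2* from 7.31 to 1.33.

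**Figure D2:**
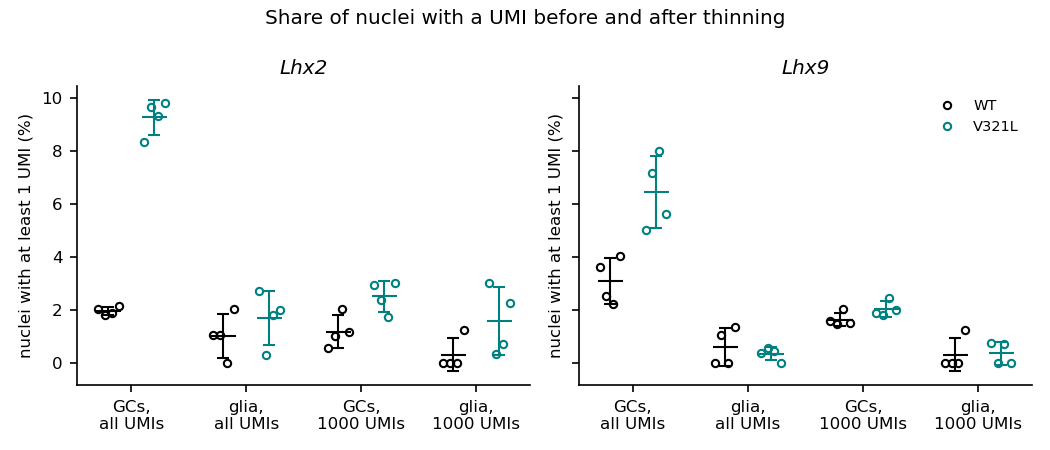
Percent of nuclei with at least 1 UMI of *Lhx2* (left) and *Lhx9* (right), for GCs and for oligodendrocytes, OPCs and microglia together (glia), at full depth and thinned to 1000 UMIs, with 1 point per mouse and the mean ± SD over 4 mice per genotype. The shares of *Lhx2* in GCs, 1.97% and 9.29% at full depth, come down to 1.19% and 2.52% at equal depth.

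The difference in *Lhx2* was also seen within clusters of GCs, although these were split by genotype. Cluster 0 held 754 WT and 2584 V321L GCs, and there *Lhx2* stood at 11.1 CPM (95% Poisson interval 7.36 to 16) in WT and 23.4 CPM (20.6 to 26.6) in V321L. In cluster 1, with 2444 WT and 207 V321L GCs, it stood at 11.1 CPM (8.69 to 14.0) and 23.2 CPM (13.0 to 38.2), so that these intervals overlapped. *Lhx9* stood at 23.7 CPM in WT and 17.7 CPM in V321L in cluster 0, and at 17.9 and 17.0 CPM in cluster 1. In clusters 2, 3 and 16 *Lhx9* stood at 9.71, 15.3 and 9.43 CPM in WT and at 3.30, 6.18 and 2.73 CPM in V321L, the latter from 1, 2 and 1 UMIs. These intervals pool the mice and cover counting error only, and cluster 5 held 861 V321L among its 882 GCs.

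Gene length moved with the change in GC RNA across the genes tested, 94.5% of which had a length. Genes of at most 10 kb had a median change of 1.71 on the log2 scale (n = 2465), those of 10 to 30 kb 0.53 (n = 3695), those of 30 to 100 kb -0.21 (n = 3489) and longer ones -0.83 (n = 1954). *Lhx2* spans 30467 bp and *Lhx9* 23654 bp, and the medians of their length classes were -0.21 and 0.53. *Lhx2* lies just above the limit of 30 kb, below which the median was 0.53. The part of gene length in the change of *Lhx2* or *Lhx9* was not tested.

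Of the members too sparse for the test across genes, the 5 with the most UMIs were *Six4*, *Tbx15*, *Pax6*, *Nkx6-2* and *Pax2*. *Six4*, a homeobox factor of muscle and sensory ganglia, gave 5, 5, 5 and 7 UMIs in WT F1, F2, M1 and M2 and 10, 15, 4 and 4 UMIs in V321L F1, F2, M1 and M2. *Tbx15*, a T-box factor of skeleton and skin, gave 5, 17, 2 and 5 UMIs in WT and 7, 6, 7 and 4 in V321L mice. Their levels of 1.91 CPM ± 0.827 against 1.89 CPM ± 0.826 and of 1.95 CPM ± 1.12 against 1.497 CPM ± 0.377 (SD, n = 4 each) overlapped. Free RNA was estimated to give only 1.86 of the 22 *Six4* UMIs of WT GCs and 0.636 of the 29 of *Tbx15*, so that most of their UMIs lay outside this estimate.

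*Pax6*, the paired box factor of eye, cortex and adult neural stem cells, gave 4, 2, 9 and 2 UMIs in WT F1, F2, M1 and M2 and 3, 5, 3 and 6 UMIs in V321L GCs. Its level was 1.91 CPM ± 2.36 in WT and 1.10 CPM ± 0.569 in V321L GCs (SD, n = 4 each). Free RNA was estimated to give 26.4 *Pax6* UMIs in WT GCs, more than the 17 found, so that in WT it cannot be told from background. *Nkx6-2*, a homeobox factor of oligodendrocytes, gave 7 UMIs in WT and 15 in V321L GCs, against 4.87 and 25.6 estimated from free RNA. *Pax2*, a factor of kidney and midbrain, gave 0, 2, 1 and 4 UMIs in WT and 2, 9, 0 and 3 in V321L mice. The share of GCs with a UMI did not pass the test for any of these 5 members, with exact permutation p of 0.114 to 0.429 at full depth and 0.229 to 1 when thinned.

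The summed level of the members did not separate the genotypes. All 101 members together stood at 36.8, 33.8, 73.3 and 40.1 CPM in WT F1, F2, M1 and M2 and at 53.2, 50.2, 46.1 and 59.7 CPM in V321L F1, F2, M1 and M2. The means were 46.0 CPM ± 18.3 and 52.3 CPM ± 5.71 (SD, n = 4 each), a difference of 6.31 CPM that was smaller than the SD of the WT mice. It was 15.4 CPM without WT M1 and 2.26 CPM without WT F2, the highest and lowest of the values with 1 mouse left out. Without *Lhx2* and *Lhx9* the sum was 16.1 CPM ± 12.5 in WT and 9.01 CPM ± 2.41 in V321L GCs (SD, n = 4 each). WT M1 alone stood at 34.8 CPM, and the other 3 WT mice averaged 9.89 CPM ± 0.641 (SD, n = 3), near the V321L mice.

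Other cell classes were compared in the same way, and members called there were found only in astrocytes and radial glia. In the 6 classes with at least 20 nuclei in at least 3 mice of each genotype, no member passed the filter on low counts in oligodendrocytes, OPCs, microglia, GABAergic neurons or other excitatory neurons. In those classes 32.5%, 21.5%, 57.8%, 35.3% and 36.7% of all genes tested were called, in that order. Sums over a class cannot separate fewer nuclei that express a gene from less RNA per nucleus.

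In astrocytes and radial glia, *Pax6* and *Lhx2* were higher in V321L mice, in a comparison that called 53.1% of the 4275 genes tested, 28.7% of them as higher and 24.4% as lower. *Pax6* stood at 23.7, 28.9, 39.3 and 14.6 CPM in WT F1, F2, M1 and M2 and at 120.6, 129.3, 88.2 and 110.9 CPM in V321L F1, F2, M1 and M2. These values rest on 4, 9, 4 and 5 UMIs in WT and 31, 37, 9 and 19 UMIs in V321L mice. The genotypes did not overlap, and the means were 26.6 CPM ± 10.3 and 112 CPM ± 17.7 (SD, n = 4 each). The log2 change was 2.20 (SE 0.323, edgeR adjusted p = 5.94e-05).

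*Lhx2* in the same nuclei stood at 23.7, 35.3, 19.6 and 29.2 CPM in WT and at 120.6, 122.3, 98.0 and 75.9 CPM in V321L F1, F2, M1 and M2. It rested on 4, 11, 2 and 10 UMIs in WT and 31, 35, 10 and 13 UMIs in V321L mice, again without overlap. The means of 26.9 CPM ± 6.81 and 104 CPM ± 21.9 (SD, n = 4 each) differed by 1.84 on the log2 scale (SE 0.305, edgeR adjusted p = 0.000156). Both genes had UMIs in this class in all 4 WT mice. Without WT M1 the changes were 2.08 for *Pax6* and 1.52 for *Lhx2*, with edgeR adjusted p of 9.97e-05 and 0.00102.

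The makeup of the class differed between the genotypes. The class held 105, 220, 58 and 154 nuclei in WT F1, F2, M1 and M2 and 183, 149, 62 and 115 nuclei in V321L mice. Of its clusters, 1 was held by WT, with 194 of its 202 nuclei in which GC markers scored second, and it gave 13 *Lhx2* and 7 *Pax6* UMIs. Without this cluster the change was 1.66 for *Pax6* (SE 0.362, edgeR adjusted p = 0.000633) and 1.62 for *Lhx2* (SE 0.387, edgeR adjusted p = 0.00147). WT M1 then kept 1 *Lhx2* UMI, or 110 CPM, within the range of the V321L mice, and no *Pax6* UMI. With nuclei thinned to 500 UMIs no member passed the filter, and without the filter *Pax6* was still called (1.73, edgeR adjusted p = 0.0434) and *Lhx2* was not (1.34, edgeR adjusted p = 0.198).

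The change of *Pax6* in astrocytes and radial glia was set against that in GCs, where its 17 WT UMIs were fewer than the 26.4 estimated for free RNA and 9 of them came from WT M1. In a test of the difference itself, with mouse as a block, the fitted change in astrocytes and radial glia was larger by 2.54 on the log2 scale (SE 0.729, edgeR adjusted p = 0.0152). *Pax6* did not pass the filter in GCs alone and entered this test through its counts in astrocytes and radial glia. No difference between the classes is thus concluded from it. The test was not repeated without WT M1. Of the 10971 genes tested there 11.9% were called, and 3.04% as a higher change in astrocytes and radial glia. For *Lhx2* the difference was 0.76 (SE 0.415, edgeR adjusted p = 0.276), which did not pass.

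In GABAergic neurons and OPCs other members had the highest WT level. *Lhx6*, which specifies interneurons from the medial ganglionic eminence, led in GABAergic neurons with 18.0, 14.4, 38.0 and 14.8 CPM in WT F1, F2, M1 and M2 and 58.3, 39.7, 30 and 23.5 CPM in V321L mice. The ranges overlapped, with 21.3 CPM ± 11.3 and 37.9 CPM ± 15.2 (SD, n = 4 each, exact permutation p = 0.114). *Nkx2-2*, a factor of oligodendrocyte differentiation, led in OPCs with 3 UMIs in WT and 24 in V321L mice, and ranged from 0 to 53.9 CPM in WT and from 30.4 to 110 CPM in V321L mice (exact permutation p = 0.114). Both genes thus overlapped between the genotypes.

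*Lhx9* led in other excitatory neurons, with a lower mean in V321L mice. It stood at 22.7, 13.3, 22.6 and 13.4 CPM in WT F1, F2, M1 and M2 and at 12.3, 0, 0.7 and 2.5 CPM in V321L mice, from 19 and 6 UMIs. The means were 18.0 CPM ± 5.42 and 3.89 CPM ± 5.71 (SD, n = 4 each, exact permutation p = 0.0286, the smallest possible). *Lhx9* was named for this class because its WT level was the highest, a choice that favours a lower value in V321L mice. The p rests on those same WT values and was not adjusted for the choice. This gene did not pass the filter of the test across genes in this class, and the difference from its change in GCs, -2.55 on the log2 scale, did not pass (edgeR, adjusted p = 0.176), in a test that called 0.453% of genes. One cluster of this class held 114 WT and 6 V321L nuclei, and *Lhx9* in free RNA stood at 40.3 CPM in WT and 11.2 CPM in V321L libraries. Their part in the difference was not tested.

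In the smaller classes the leading members had few UMIs. *Lhx2* gave 11 UMIs in WT and 30 in V321L neuroblasts and immature GCs, or 116 and 117 CPM, and 4 and 6 UMIs in microglia, where 186 WT nuclei lay in a cluster of 204 that also showed oligodendrocyte markers. In WT oligodendrocytes no member gave more than 1 UMI. *Lhx1*, a LIM homeobox factor of Cajal-Retzius cells, gave 0 UMIs in WT and 2, 0, 7 and 1 UMIs in V321L F1, F2, M1 and M2 in that class. *Tbx3*, a T-box factor of limb and heart, led in WT vascular cells with 3 UMIs, against 1 in V321L mice.

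**Figure D3:**
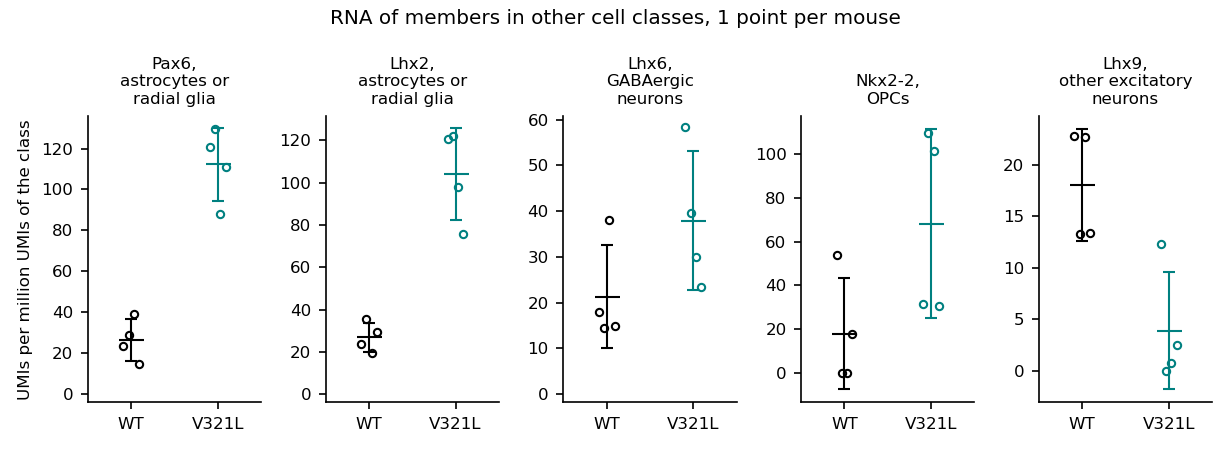
RNA level, in CPM, of *Pax6*, *Lhx2*, *Lhx6*, *Nkx2-2* and *Lhx9* in the cell classes given above each panel, with 1 point per mouse and the mean ± SD per genotype. *Lhx2* and *Pax6* in astrocytes and radial glia are separated by genotype, from 19.6 to 35.3 CPM against 75.9 to 122.3 CPM for *Lhx2*.

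Most members had no called ATAC peak at the start site in either genotype. Peaks were called by the authors in each library separately. Between 6 and 12 members (5.94% to 11.9%) had a peak within 1 kb of the TSS in the WT libraries and between 4 and 22 (3.96% to 21.8%) in the V321L libraries, against 42.4% to 56.7% of all genes. The counts were 6, 12, 9 and 8 in WT F1, F2, M1 and M2 and 7, 16, 22 and 4 in V321L F1, F2, M1 and M2, so that the V321L libraries held both the lowest and the highest. Over all libraries 33 members had a peak in at least 1, 68 in none, and 2, *Lhx2* among them, in all 8. No peak was found in any library for 67.3% of the members against 41.2% of all genes, and a peak in all 8 for 1.98% against 39.3%.

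CpG-rich promoters did not have this lack of peaks in general. Of 9264 genes with at least 15 CG dinucleotides in the promoter, 81.0% had a peak in all 8 libraries and 95.3% in at least 1. Of the 43 members with such a promoter, 1 had a peak in all 8 and 17 (39.5%) in at least 1. The *Hoxa13* promoter printed above is among those without a peak, and *Lhx2* is the member with a peak in all 8.

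Of the 33 members with a peak, 16 had it in 1 library only, and for 9 of these it was V321L M1. The number of peaks per library ranged from 36556 to 130470, and the libraries with the fewest and the most peaks also had the fewest and the most members with a peak. Among the *Hox* genes, named after their values were seen, 7 had a peak in at least 1 library, among them *Hoxa3*, *Hoxa4* and *Hoxd1*, and none had one in all 8.

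**Figure D4:**
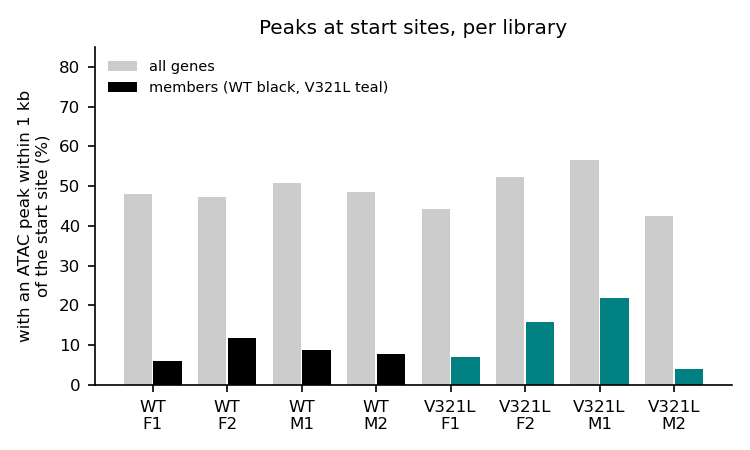
Percent of the 101 members and of all genes with an ATAC peak within 1 kb of the TSS in each of the 8 libraries. The members lie between 3.96% and 21.8% and all genes between 42.4% and 56.7%.

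ATAC counts in the GCs, scaled in the same way to CPM of all ATAC counts of the GCs, could be compared only for members with a peak in every library. At the TSS of *Lhx2* they were 41.7, 43.9, 47.0 and 47.9 CPM in WT F1, F2, M1 and M2 and 44.3, 41.1, 44.4 and 77.0 CPM in V321L F1, F2, M1 and M2. V321L M2 stood alone and the rest overlapped, with means of 45.1 ± 2.85 and 51.7 ± 17.0 CPM (SD, n = 4 each). The change was 0.08 on the log2 scale (SE 0.118, edgeR adjusted p = 0.869).

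Few windows of any gene differed. The median window with a peak in all libraries had 36.2 CPM in WT, and *Lhx2* lay above 65.0% of the 12695 windows. Of 12693 windows tested 2 (0.0158%) were called by edgeR, 1176 (9.26%) had an unadjusted p under 0.05, and DESeq2 called 16 (0.126%) with 8.01% at an unadjusted p under 0.05.

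The other members with the most ATAC counts at the TSS in WT GCs were *Lhx9* with 10.6 CPM and a peak in 6 libraries, *Pax6* with 8.54 and a peak in 7, and *Tbx6*, a T-box factor of the paraxial mesoderm, with 7.65 and a peak in 5. A library without a peak was counted as 0 in these means, and no test was made. In windows of 5 kb to either side, 9 members had a peak in every library and edgeR called 0 of the 14595 windows, of which 1217 (8.34%) had an unadjusted p under 0.05. Of the 9 members, 3 had such a p, namely *Gata2* with a change of 0.52 (edgeR, adjusted p = 0.565) and *Hoxa7* and *Hoxa9*, which share a window, with 0.45 (edgeR, adjusted p = 0.587). In astrocytes and radial glia, where 0.436% of windows were called, the change at *Lhx2* was 0.32 (SE 0.247, edgeR adjusted p = 0.73). In other excitatory neurons *Lhx2* was tested and not called, where edgeR called 0 of 10686 windows and 368 had an unadjusted p under 0.05.

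The *Hox* clusters were also summed over their whole length, with 5 kb to either side of the outermost TSS. The *Hoxa* region at chr6:52153317-52265880 gave 10.8, 14.9, 18.2 and 11.5 ATAC CPM in WT F1, F2, M1 and M2 and 20.7, 25.3, 22.6 and 34.7 in V321L F1, F2, M1 and M2. The genotypes did not overlap, but the peaks were called separately and covered 907 to 1863 bp in WT and 947 to 4539 bp in V321L libraries. Per kb of peak the *Hoxa* values did overlap. They were 11.8, 16.2, 9.76 and 12.7 CPM in WT F1, F2, M1 and M2 and 21.9, 5.56, 5.05 and 19.2 CPM in V321L F1, F2, M1 and M2. The numbers of *Hoxa* peaks were 1, 1, 2 and 1 in WT and 1, 5, 5 and 2 in V321L libraries, and no test was made on sums over unlike peaks. *Hoxb* gave 9.79 ± 2.64 and 9.46 ± 7.75, *Hoxc* 3.41 ± 2.58 and 3.05 ± 3.83, and *Hoxd* 1.93 ± 2.28 and 6.75 ± 5.38 CPM in WT and V321L mice (SD, n = 4 each), all with overlap.

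RNA of the proteins that act on these promoters was measured in the same GCs. PRC2 subunits and partners were split, with 3 of the 9 tested called higher and 5 lower in V321L GCs and a median change of -0.50, against 0.11 over all genes, of which 70.2% were called (38.5% higher and 31.8% lower). *Jarid2*, which recruits PRC2, changed by -1.56 (SE 0.129, edgeR adjusted p = 4.76e-07), *Aebp2* by -0.92 (SE 0.103, edgeR adjusted p = 4.07e-06), *Mtf2* by -0.69 (SE 0.103, edgeR adjusted p = 4.76e-05), and *Ezh2*, the methyltransferase, by -0.55 (SE 0.130, edgeR adjusted p = 0.00192). With library sizes 4 were called higher and 3 lower, with a median of -0.04 against 0.58 over all genes. With DESeq2 0 were called higher and 5 lower (median -0.59 against 0.02), and thinned to 1000 UMIs 3 higher and 4 lower (median -0.28 against 0.05). The list thus lay below the median of all genes in these 4 fits, while with free RNA subtracted 3 were called higher and 4 lower, and its median was 0.26 against 0.21.

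Of the PRC1 subunits, 8 of 15 tested were called higher and 2 lower in V321L GCs, where 38.5% of all genes were called higher and 31.8% lower, with a median of 0.61. With library sizes 11 were called higher and 0 lower, and thinned to 1000 UMIs 5 of 13 higher and 2 lower. *Cbx8*, which reads the PRC2 mark, changed by 2.81 (SE 0.414, edgeR adjusted p = 4.16e-05), *Ring1*, a ubiquitin ligase of the complex, by 2.59 (SE 0.367, edgeR adjusted p = 2.97e-05) and *Pcgf1* by 2.25 (SE 0.511, edgeR adjusted p = 0.00138). *Cbx8*, *Ring1* and *Pcgf1* span 4.61, 3.89 and 3.30 kb, and *Jarid2* and *Aebp2* 191 and 56.0 kb. Other PRC1 genes, named after their values were seen, were mixed by length. *Phc2* (98.2 kb) changed by 0.61 and *Cbx7* (55.3 kb) by 1.05, while *Bmi1* (9.61 kb) stood at -0.10 and did not pass. *Cbx6* (10.4 kb) changed by 1.34, *Phc3* (70.2 kb) by -0.45 and *Pcgf5* (112.6 kb) by -0.46. The part of gene length in these changes was not tested.

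The enzymes that counter PRC2 were split. Of 7 demethylases of lysine 27 and methylases of the MLL type tested, 2 were called higher and 3 lower, with a median of 0.07, which was -0.02 with DESeq2 and 0.52 with library sizes. *Kdm6a*, which removes the mark, changed by -1.48 (SE 0.174, edgeR adjusted p = 5.99e-06) and spans 119 kb, and *Men1*, a partner of MLL, by 1.17 (SE 0.277, edgeR adjusted p = 0.00182) and spans 5.92 kb. Of 9 TALE homeobox genes, whose proteins bind DNA together with HOX proteins, 6 were tested, of which 3 were called higher and 2 lower, while thinned to 1000 UMIs 3 were tested, 0 called higher and 2 lower. *Meis3* changed by 1.38 (SE 0.288, edgeR adjusted p = 0.000717). The 2 ATAC windows that edgeR called in GCs belonged to none of these 4 lists.

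**Figure D5:**
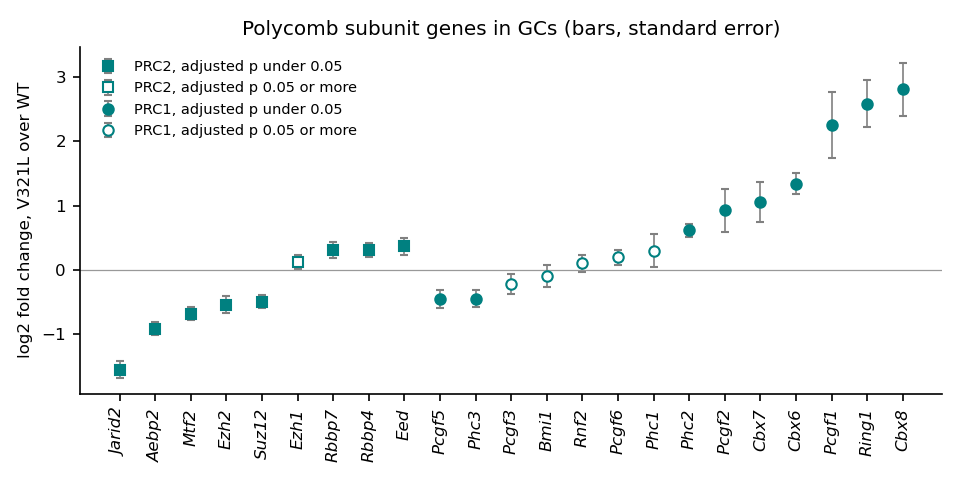
Log2 change of RNA in V321L against WT GCs with its standard error, for the 9 PRC2 genes (squares) and 14 of the 15 PRC1 genes (circles) tested in edgeR, filled where the adjusted p was under 0.05. PRC2 genes run from -1.56 (*Jarid2*) to 0.36 (*Eed*) and PRC1 genes from -0.46 (*Pcgf5*) to 2.81 (*Cbx8*).

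A further 50 developmental factors that polycomb silences outside their lineages were counted beside the members. In GCs 23 of the 50 had no UMI, against 24.5% of all genes. Together they gave 123 of 1.31e+07 UMIs in WT and 191 of 1.64e+07 in V321L GCs. The totals thus differed in depth, free RNA was not subtracted, and no test was made on these sums. Only *Dbx2*, a homeobox factor of the spinal cord and of neural stem cells, passed the filter, with a change of -0.24 (SE 0.384, edgeR adjusted p = 0.588).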

How the data were processed

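Nuclei of the dentate gyrus were profiled with 10x Multiome, and the authors made the deposited matrices with Cell Ranger ARC (build mm10 in the submitters' notes). As deposited by the authors, the values are counts per barcode made by aligning reads and collapsing UMIs, without normalization, for RNA per gene and for ATAC in peaks called per library. Nuclei were kept with more than 500 UMIs, more than 250 genes and at least 500 ATAC counts, with the study's upper limits, and doublets were removed. Clusters (leidenalg 0.10.2, resolution 1) were named from marker lists without the members. Counts were summed per mouse and class and tested over all genes with edgeR 4.0.16 (quasi-likelihood, TMM, its filter on low counts, Benjamini-Hochberg, threshold 0.05), after the fit had been tested on simulated data. DESeq2 1.42.0, thinning, free RNA, covariates and left-out mice were alternatives. Single values were compared by exact permutation tests. Named were the members that passed the filter in GCs, the 5 sparse ones with the most UMIs, in other classes those called and the highest in WT, and for ATAC the 5 with the most counts. The members and lists were chosen with earlier results of these data known. The study's own comparisons were not used here. Some single genes are not reported here.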

Additional observations from a re-analysis of the deposited data

Results flagged for a closer look

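In 48 groups of 4 mice the distance of the highest or lowest mouse from the rest was compared with the range of the group, and 10 groups passed the limit (Dixon's 95% critical value). Chance alone passes about 1 in 20 groups only where values are normally distributed. Several of these groups hold sparse counts, so the 10 cannot be set against that rate. Sums and single genes in this count also share UMIs.

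WT M1, the library with the fewest UMIs, stood above the other 3 WT mice in 6 of these groups. In its GCs *Lhx2* was at 19.2 CPM and *Pax6* at 5.40 CPM. The summed level of all members there was 73.3 CPM, that of the members other than *Lhx2* and *Lhx9* was 34.8 CPM, and that of the *Hox* members was 4.80 CPM. *Lhx6* was at 38.0 CPM in its GABAergic neurons. *Tbx15* stood apart in the GCs of WT F2, with 3.62 CPM.

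V321L M2 stood above the other 3 V321L mice in 3 groups. *Pax6* was at 1.95 CPM and the *Hox* members together at 0.649 CPM in its GCs, the latter from 2 UMIs. ATAC counts at the TSS of *Lhx2* were 77.0 CPM in its GCs, and this library had the fewest peaks, 36556.

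The fitted change of *Pax6* between the genotypes was larger in astrocytes and radial glia than in GCs, by 2.54 on the log2 scale (edgeR, adjusted p = 0.0152). In WT GCs its 17 UMIs, 9 of them in WT M1, were fewer than the 26.4 estimated for free RNA, so that its change in GCs cannot be told from that of the background. *Pax6* entered this test only through its counts in astrocytes and radial glia. The test called 11.9% of all genes and was not repeated without WT M1, and no difference between the classes is concluded from it.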

How the results depend on the processing

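In GCs 2 members were called. The number was 1 with library sizes, 4 without the filter on low counts, 0 with nuclei thinned to 1000 UMIs and 1 with free RNA subtracted. Of all genes, 8822 of 12279 were called with library sizes and 10036 of 24378 without the filter. Thinned, 6056 of 9267 were called, and with free RNA subtracted 7601 of 11253. It was 2 with DESeq2, with sex as a covariate, with GCs chosen by marker UMIs, with doublets kept, with a mitochondrial share under 1% and without any 1 mouse. In these settings 7997 to 8982 genes were called, of 11616 to 12598 tested. Without the filter 57 members were tested, and *Gata2*, *Pax3* and *Pax5*, with few UMIs and none of the 3 tested otherwise, were called lower. Without single mice *Lhx2* ranged from 0.57 to 0.84 and *Lhx9* from -0.56 to -0.44.

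In the other classes 2 members were called, 0 when thinned to 500 UMIs, where none was tested, and 1 when the filter was also dropped, an alternative chosen after seeing the data. That last fit called 1541 of 15674 genes in astrocytes and radial glia. Without single mice 1851 to 2971 genes were called in that class, of 3881 to 5543 tested. The number of members called ranged from 2 to 4 without single mice and was 4 without WT F1, where *Nkx2-2* and *Nkx6-2* were added in oligodendrocytes. Both had 0 UMIs in WT oligodendrocytes and passed the filter on low counts only through V321L mice, in fits with a WT mouse left out. Without WT F1 the filter kept 3136 genes in place of 2269, so that these added calls rest on the change of the filter. Of the 3136 genes 815 were called. Leaving out the WT-held astrocyte cluster, also chosen after seeing the data, kept 2 calls on members, where 1047 of 2445 genes were called. Thinned to 1000 UMIs, the difference in the share of GCs fell to 1.33 percentage points for *Lhx2* and to 0.40 for *Lhx9*. In windows of 5 kb 61 members had a peak in at least 1 library, in place of 33. No ATAC alternative called a member, and no called change of a member turned its direction. Changes that did not pass were less stable. The differences in the share of GCs for *Tbx15*, *Pax6* and *Pax2* went from positive to negative when thinned. The ATAC change at *Lhx2* was -0.02 without V321L M2.

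The replicate labels do not pair the mice, since mice with the same label in both genotypes had correlations of 0.057, 0.272, -0.131 and 0.005 across genes. With a replicate block 2 members were called in GCs and 8450 genes in all, against 8624 without, and no call on a member changed.

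Depth limited the tests. For 99 members the GCs of a genotype gave too few UMIs for a test across genes, and a floor of 3 counts left levels under 0.229 CPM in WT and 0.183 CPM in V321L GCs unseen. Peaks called per library kept all but 2 members out of the ATAC test. The ages of the mice are not given in the sources used here, and genotype, depth and mitochondrial share moved together.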

Other observations

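Several members outside the rule for named genes were at 0 in WT nuclei of a class and present in V321L nuclei. The 4 given here were chosen after their values were seen, and others, such as *Lhx5* in Cajal-Retzius cells (7 V321L UMIs), had the same pattern. In oligodendrocytes *Nkx6-2*, a homeobox factor of myelinating cells, gave 0 UMIs among 121658 in WT and 10, 29, 8 and 12 UMIs in V321L F1, F2, M1 and M2. Its V321L level of 88.3 CPM was 3.58-fold a floor of 3 counts over the WT nuclei. Such ratios leave out counting error in the V321L UMIs. *Nkx2-2*, a factor of oligodendrocyte differentiation, gave 0 UMIs in WT and 13, 9, 12 and 5 UMIs in V321L oligodendrocytes. Its pooled V321L level was 2.37-fold that floor. WT mice held few oligodendrocytes, 29, 51, 8 and 46 nuclei in F1, F2, M1 and M2, and with the 3 mice over 20 nuclei an exact permutation test cannot give a p under 0.0571.

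*Six5*, a homeobox factor of lens and muscle, gave 0 UMIs in WT astrocytes and radial glia. In V321L F1, F2, M1 and M2 it gave 8, 5, 0 and 0 UMIs there, with both V321L males at 0. Over the pooled nuclei its V321L level was 4.91-fold the WT floor, again without counting error in the V321L UMIs. *Tbx2*, a T-box factor of heart and limb, gave 0 UMIs in WT GCs and 5 in V321L GCs, with at least 1 in each V321L mouse. It was named after this pattern was seen, and the pattern alone sets the exact permutation p at 0.0286, the smallest possible. Nothing is concluded from that p. Its pooled V321L level of 0.304 CPM was 1.33-fold the WT floor of 0.229 CPM. Counting error in the 5 UMIs was left out, so this ratio is not a lower bound. Members at 0 in WT and present in V321L nuclei were looked for among 101 members, and no value was adjusted for that choice.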
